A study of Mus musculus with 48 samples.

Results

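The 31 genes described here are established marker and functional genes of astrocytes, and they were taken by symbol as known genes of the cell type, with no threshold on measured values. All 31 were found, with 1 Ensembl gene ID each, among the 47569 IDs present in both kinds of RNA file. They were followed in RNA from the whole hippocampal CA region in 6 libraries labelled Setd1b cKO and 6 labelled Control, and in RNA from hippocampal CA neurons in 3 libraries labelled Setd1b cKO and 3 labelled Control. All animals were adult C57BL/6J mice of 4 to 6 months per the labels, and cKO stands for conditional knockout. The protein made from Setd1b is a histone methyltransferase that acts on lysine 4 of histone H3. The labels do not name the Cre line, and the study is known from its publication to have used a CaMKII-driven Cre, which acts in excitatory forebrain neurons. The sources used here give neither the way in which neuron RNA was obtained nor whether a library came from 1 animal or several, so p-values measure only the spread between these libraries. Peak lists of 4 histone modifications in fixed neuronal nuclei, sorted by flow cytometry, gave the state of the same genes' promoters.

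Astrocytes are the glial cells that clear glutamate and potassium from the space around synapses, supply neurons with metabolites and contact blood vessels with their end feet. Water and ion channels, gap junctions, glutamine synthesis and secreted lipid carriers are the tasks for which the genes studied here are best known in the hippocampus. Astrocytes respond to injury and inflammation by raising a further set of genes, called reactive, among which Gfap is the most used marker. Methylation of lysine 4 marks transcribed promoters in its trimethylated form (H3K4me3), and enhancers and promoter flanks in its monomethylated form (H3K4me1).

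Promoter sequences of RefSeq genes were at hand for 26 of the 31 genes, on build GRCm38.p6, and Aqp4, Sox9, Clu, Atp1b2 and Chrdl1 were not matched. The 250 bases before the annotated transcription start of 4 genes are shown, because the first pair had no H3K4me3 peak at the promoter in any of the 8 neuronal libraries and the other pair had one in all 8. Each sequence is given 5′ to 3′ on the strand of the gene, with CG dinucleotides, the sites of DNA methylation in mammals, in capitals. Gfap lies at chr11:102897201-102897450 on the minus strand, Gja1 at chr10:56377050-56377299 on the plus strand, Htra1 at chr7:130935953-130936202 on the plus strand and Ttyh1 at chr7:4119280-4119529 on the plus strand.
Gfap: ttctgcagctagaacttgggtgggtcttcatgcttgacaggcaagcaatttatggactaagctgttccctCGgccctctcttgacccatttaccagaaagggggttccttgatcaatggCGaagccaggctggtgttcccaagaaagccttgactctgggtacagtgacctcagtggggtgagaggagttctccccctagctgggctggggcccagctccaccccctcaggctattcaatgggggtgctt
Gja1: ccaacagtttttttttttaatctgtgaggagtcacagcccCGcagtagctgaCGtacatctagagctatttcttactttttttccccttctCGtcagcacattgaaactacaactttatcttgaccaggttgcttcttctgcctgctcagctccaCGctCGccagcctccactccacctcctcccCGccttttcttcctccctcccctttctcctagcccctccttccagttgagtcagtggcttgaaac
Htra1: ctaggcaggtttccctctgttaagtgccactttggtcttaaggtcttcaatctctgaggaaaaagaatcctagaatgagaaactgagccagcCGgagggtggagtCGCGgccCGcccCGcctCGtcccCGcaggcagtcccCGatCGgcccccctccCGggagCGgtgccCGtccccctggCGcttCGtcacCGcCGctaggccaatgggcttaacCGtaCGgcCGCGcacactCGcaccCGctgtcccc
Ttyh1: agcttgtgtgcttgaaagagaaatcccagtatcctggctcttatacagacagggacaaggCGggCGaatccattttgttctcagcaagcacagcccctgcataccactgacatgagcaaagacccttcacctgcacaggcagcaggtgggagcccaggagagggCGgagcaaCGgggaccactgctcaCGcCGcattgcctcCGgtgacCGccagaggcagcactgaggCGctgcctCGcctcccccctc
CG dinucleotides numbered 2 in the Gfap stretch, 6 in Gja1, 22 in Htra1 and 10 in Ttyh1, and other genes with a peak in all 8 libraries had as few as 3 (Dio2, in its 300 bp window).

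Whole CA libraries held 14.9 to 20.1 M counted reads and neuron libraries 55.7 to 69.1 M, and no astrocyte gene was at 0 in any library. The lowest count of any of the 31 genes was 37 reads in whole CA RNA, for Chrdl1, and 16 reads in neuron RNA, for Entpd2. Counts over the whole Setd1b gene went against the labels. In CPM, a gene's count scaled to the library's total, Setd1b averaged 39.3 ± 8.56 (SD, n = 6) in control whole CA libraries but 59.6 ± 6.27 (SD, n = 6) under the cKO label. Its averages in neuron RNA were 54.2 ± 9.74 CPM (SD, n = 3) for Control, and for cKO 64.9 ± 6.38 CPM (SD, n = 3). The genotype is therefore given as labelled throughout, and counts over the whole gene do not measure the loss of single exons.

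The comparison of control neuron RNA with control whole CA RNA asked how much lower the astrocyte genes stood in neuron RNA. All 31 genes were lower in neuron RNA, with log2 differences from −6.78 to −1.05 and a median of −4.79 (edgeR adjusted p under 0.05 for each). Of all 16859 genes tested, 40.1% were called lower and 43.6% higher, 83.6% in all, and the median over all genes was 0.07. The summed level of the 31 genes was 7841 ± 376 CPM (SD, n = 6) in control whole CA RNA and 714 ± 41.2 CPM (SD, n = 3) in control neuron RNA, or 9.10% of the whole CA sum. Mitochondrial genes took 3.41 to 7.05% of the reads in the 12 whole CA libraries and 0.00814 to 0.0144% in the 6 neuron libraries, and the part of this in the differences was not tested. Material and sequencing series cannot be told apart in this comparison. In a bulk sample, fewer astrocytes and less RNA per astrocyte cannot be told apart.

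Depletion was uneven across the genes. Itih3 (ENSMUSG00000006522), which encodes a heavy chain that binds hyaluronan, was 109.9-fold lower in neuron RNA (log2 difference −6.78, SE 0.18, adjusted p 8.8e-15 in edgeR). It stood at 0.347, 0.370 and 0.261 CPM in the neuron libraries labelled Control 1 to 3, against a lowest, median and highest level of 28.6, 30.9 and 41.0 CPM in whole CA. Gja1 (ENSMUSG00000050953), the gap junction protein connexin 43 that couples astrocytes, was 104-fold lower (log2 difference −6.70, SE 0.17, adjusted p 5.2e-15 in edgeR). Mlc1, Aqp4, Gjb6 and Gfap followed, at 76.2, 68.4, 64.0 and 59.1-fold lower. The markers S100b, Aldh1l1 and Sox9 were 28.9, 27.6 and 11.6-fold lower. At the other end stood Ttyh1 (ENSMUSG00000030428), a membrane protein of the tweety anion channel family, which was 2.08-fold lower (log2 difference −1.05, SE 0.08, adjusted p 4.5e-09 in edgeR). Atp1b2 (ENSMUSG00000041329), the beta-2 subunit of the sodium pump, was 3.90-fold lower (log2 difference −1.96, SE 0.09, adjusted p 3.8e-12 in edgeR). Chrdl1, a secreted antagonist of bone morphogenetic proteins, and Slc4a4, the sodium bicarbonate cotransporter, came next at 4.25 and 4.62-fold lower. Together Ttyh1 and Atp1b2 made up 46.4% of the summed level of the 31 genes in control neuron RNA and 10.3% in control whole CA RNA.

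**Figure D1:**
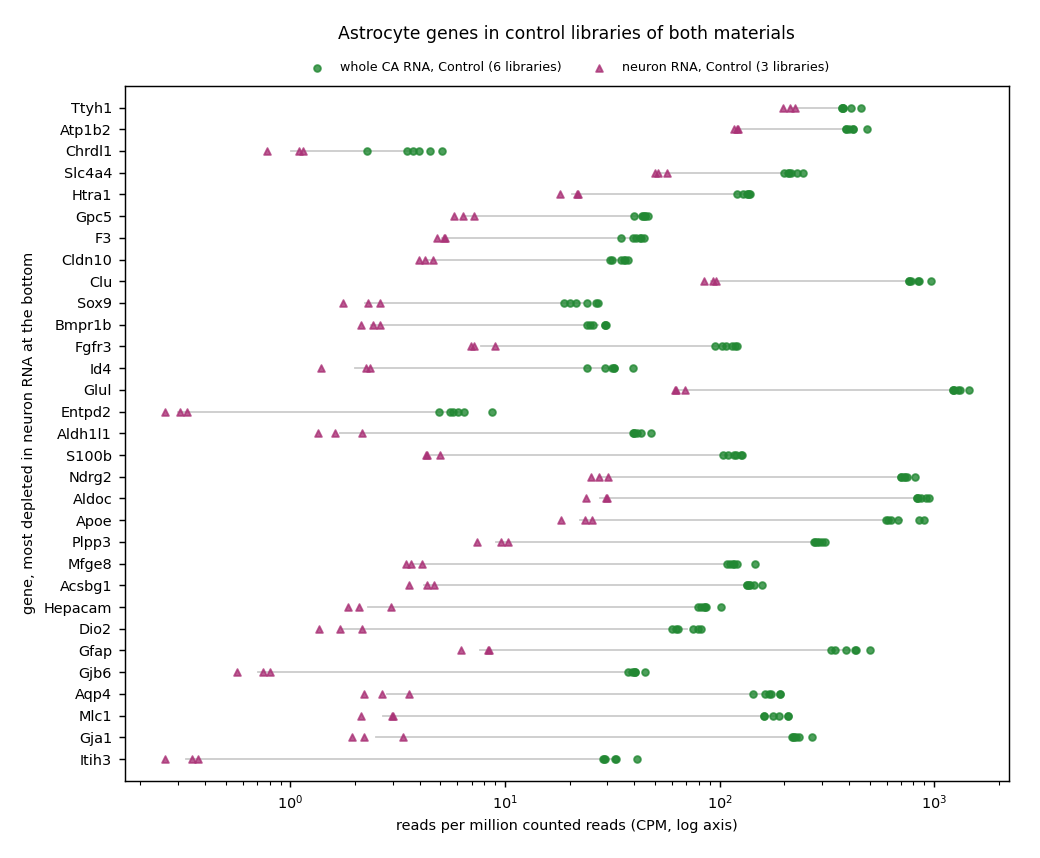
Level of each of the 31 astrocyte genes in the control libraries (points; CPM on a log axis), with circles for 6 whole CA libraries, triangles for 3 neuron libraries and grey lines joining the group means. Genes are ordered by their log2 difference, from Itih3 (−6.78) at the bottom to Ttyh1 (−1.05) at the top, and the symbols of both materials overlap for no gene.

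Markers of microglia, oligodendrocytes and vessels were also lower in neuron RNA. Median log2 differences were −5.13 over 12 microglial markers, −5.27 over 11 oligodendrocyte markers and −6.37 over 12 endothelial and mural markers. The median over 10 neuron markers was −1.21, within a range of −2.10 to −0.21. The values of Ttyh1 (−1.05), Atp1b2 (−1.96) and Chrdl1 (−2.09) lay inside that range. Scaling by library size alone moved the median over all genes to 0.23, and all 31 genes remained lower under that scaling.

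The whole CA comparison asked whether the astrocyte genes differed between the genotypes in the tissue as a whole. Aqp4, Slc4a4 and Atp1b2 fell in the libraries labelled cKO, and no astrocyte gene rose. They encode a water channel, an ion cotransporter and a subunit of the sodium pump, and are 3 of 9 genes grouped here under transport. Their decreases lay between 0.24 and 0.38 on the log2 scale. Over all 15362 genes tested, 2.79% were called lower and 1.38% higher, 4.17% in all (edgeR quasi-likelihood test, Benjamini-Hochberg adjusted p under 0.05). Without adjustment, 8 of the 31 genes (25.8%) had a p under 0.05 and all 8 were lower, against 2410 of all 15362 genes (15.7%, in either direction). The median log2 fold change of the 31 genes was −0.07, with 20 below 0, and that of all genes tested was −0.003.

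Aqp4 (ENSMUSG00000024411), the water channel of astrocyte end feet, had a lowest, median and highest level of 143, 172 and 192 CPM in the libraries labelled Control and 119.9, 133 and 155 CPM in those labelled cKO. In 5 of the 6 libraries labelled cKO it lay below every control library. Its change was −0.38 on the log2 scale (SE 0.08, adjusted p 0.0122 in edgeR), and the call held in all 12 fits that left out 1 library. Slc4a4 (ENSMUSG00000060961) ran from 200.1 through a median of 213 to 245 CPM in control libraries and from 169 through 186 to 201 CPM in cKO libraries. The groups overlapped through 1 library labelled cKO, and the change on the log2 scale was −0.24 (SE 0.06, adjusted p 0.0164 in edgeR). That call was lost without the libraries labelled Control 2 (adjusted p 0.0568) or Control 3 (0.0535). Atp1b2 ran from 388 through 408 to 485 CPM in control libraries and from 335 through 353 to 386 CPM in cKO libraries. It was the only astrocyte gene of which every cKO library lay below every control library, which held for 1.78% of all genes. None had every cKO library above every control library, as 1.43% of all genes did. The log2 change of Atp1b2 was −0.24 (SE 0.06, adjusted p 0.0392 in edgeR), and its call held in 3 of the 12 fits that left out 1 library, those without cKO 3, Control 1 or Control 3.

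Replicates 1 to 3 and 4 to 6 of whole CA RNA carried different lane names. Within the first lane the log2 fold changes of Aqp4, Slc4a4 and Atp1b2 were −0.26, −0.33 and −0.10 (edgeR adjusted p 0.358, 0.0625 and 0.653). Within the second lane they were −0.50, −0.15 and −0.39 (edgeR adjusted p 0.0201, 0.488 and 0.0509). All 6 values were below 0, and Aqp4 in the second lane was the only one called. With the lane as a covariate, all 3 genes stayed called.

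Among the remaining members of the transport group, Gja1 had a lowest, median and highest level of 216, 224 and 271 CPM in control libraries and 174, 209 and 235 CPM in cKO libraries, a difference of −0.16 on the log2 scale (SE 0.08, adjusted p 0.330 in edgeR). Its partner connexin 30 (Gjb6) had a log2 fold change of 0.08, and Mlc1 and Hepacam, which form a complex at astrocyte junctions, had −0.07 and 0.06. Ttyh1 ran from 370.1 through 377 to 454 CPM and from 372 through 383 to 396 CPM in the same order, a difference of −0.05 on the log2 scale (SE 0.05, adjusted p 0.735 in edgeR). Cldn10 (ENSMUSG00000022132), a claudin that forms paracellular pores, ran from 30.7 through 35.3 to 37.6 CPM and from 28.8 through 32 to 34.9 CPM (log2 fold change −0.12, SE 0.07, adjusted p 0.396 in edgeR). None of these 6 genes passed the test.

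Of the cytoskeletal and regulatory genes, Gfap (ENSMUSG00000020932), the intermediate filament protein of astrocytes, ran from 331 through 408 to 503 CPM in control libraries and from 309.6 through 344 to 399 CPM in cKO libraries. The groups overlapped, and the change on the log2 scale was −0.21 (SE 0.09, adjusted p 0.242 in edgeR). S100b (ENSMUSG00000033208), a calcium-binding protein, ran from 104 through 117 to 127 CPM and from 85.5 through 98.4 to 115 CPM (log2 fold change −0.22, SE 0.07, adjusted p 0.0947 in edgeR). For Sox9, the transcription factor that specifies astrocytes, and Id4, an inhibitor of helix-loop-helix factors, the log2 fold changes were −0.19 and −0.07. All 4 values of this group were below 0 and none passed the test.

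None of the 8 enzyme genes was called, and their log2 fold changes ran from −0.22 to 0.08. Aldh1l1 (ENSMUSG00000030088), a folate enzyme used to mark all astrocytes, stood at 39.4, 40.7 and 48.0 CPM as the lowest, median and highest control level and 33.8, 40.6 and 46.1 CPM in cKO libraries (log2 fold change −0.07, SE 0.07, adjusted p 0.729 in edgeR). Glul, which makes glutamine from glutamate, averaged 1287 ± 88.0 CPM (SD, n = 6) and 1237 ± 75.8 CPM (SD, n = 6). Dio2, which activates thyroid hormone, had the lowest value of the enzymes, −0.22 (edgeR adjusted p 0.294). Among secreted proteins the lipid carriers Apoe and Clu both had log2 fold changes of 0.00, and Htra1 (ENSMUSG00000006205), a serine protease, ran from 121 through 135 to 139 CPM and from 119.9 through 135 to 142 CPM. Itih3 ran from 28.6 through 30.9 to 41.0 CPM and from 29.6 through 31.2 to 42.1 CPM. Chrdl1 had the lowest value of the secreted group, −0.35, with the largest SE of all 31 genes in this comparison, 0.17 (edgeR adjusted p 0.312). Of the receptors and surface proteins, Gpc5 (ENSMUSG00000022112), a heparan sulfate proteoglycan, ran from 40.0 through 44.3 to 46.5 CPM and from 33.3 through 38.0 to 44.3 CPM (log2 fold change −0.22, SE 0.07, adjusted p 0.0754 in edgeR). Fgfr3, a growth factor receptor, and F3, tissue factor, had log2 fold changes of 0.03 and 0.02, and Bmpr1b, a receptor for bone morphogenetic proteins, had −0.17.

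**Figure D2:**
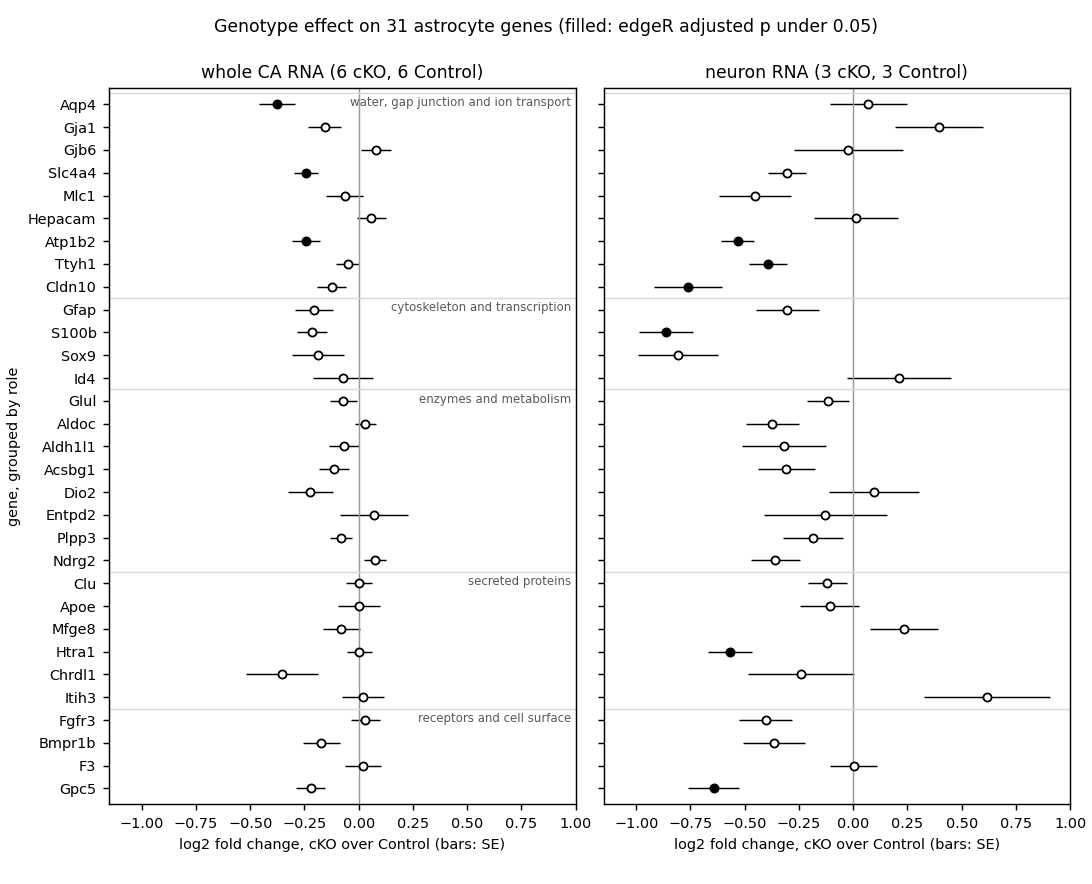
Log2 fold change of each astrocyte gene, cKO over Control as labelled, with its SE as a bar, in whole CA RNA on the left and neuron RNA on the right; genes are grouped by role and filled points are called. The 3 filled points on the left (Aqp4, Slc4a4 and Atp1b2) and the 6 on the right (Atp1b2, Ttyh1, Cldn10, S100b, Htra1 and Gpc5) all lie below 0.

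The neuron RNA comparison asked the same of the small amount of these transcripts that the neuron preparation held. S100b, Cldn10, Gpc5, Htra1, Atp1b2 and Ttyh1 fell in the libraries labelled cKO, by 0.39 to 0.86 on the log2 scale, and no astrocyte gene rose. Over all 19622 genes tested, 2.0% were called lower and 0.744% higher, 2.75% in all. DESeq2 likewise called no astrocyte gene higher in either material. Without adjustment, 14 of the 31 genes (45.2%) had a p under 0.05 and all 14 were lower, against 3379 of all 19622 genes (17.2%, in either direction). The median log2 fold change was −0.30, with 23 of the 31 below 0, against a median of 0.02 over all genes. In 12 of the 31 genes every cKO library lay below every control library, which held for 11.1% of all genes, and the reverse held for Itih3 and for 12.5% of all genes.

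S100b stood at 4.28, 4.97 and 4.34 CPM in the neuron libraries labelled Control 1 to 3 and at 2.32, 2.65 and 2.58 CPM in those labelled cKO 1 to 3. The groups did not overlap, and the change on the log2 scale was −0.86 (SE 0.12, adjusted p 0.00597 in edgeR). Atp1b2 stood at 122, 120.2 and 116 CPM and at 80.1, 84.7 and 85.4 CPM in the same order, again with no overlap (log2 fold change −0.53, SE 0.08, adjusted p 0.00579 in edgeR). These calls held in all 6 fits that left out 1 library. Atp1b2 was the only astrocyte gene called in both materials.

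Htra1 stood at 21.8, 21.6 and 18.1 CPM in the control neuron libraries and at 14.1, 13.3 and 14.5 CPM in the cKO libraries (log2 fold change −0.57, SE 0.10, adjusted p 0.0195 in edgeR). Gpc5 stood at 5.78, 7.16 and 6.36 CPM and at 4.16, 4.05 and 4.27 CPM (log2 fold change −0.64, SE 0.12, adjusted p 0.0195 in edgeR). Neither gene's groups overlapped. The call of Htra1 was lost without cKO 1, cKO 2 or Control 2, and that of Gpc5 without any of these or without Control 3, with adjusted p up to 0.0918. Cldn10 stood at 3.98, 4.64 and 4.24 CPM and at 2.99, 2.06 and 2.58 CPM (log2 fold change −0.76, SE 0.16, adjusted p 0.0334 in edgeR). Ttyh1, the most abundant of the 31 genes in neuron RNA by reads, stood at 226, 213 and 198 CPM and at 159.9, 158 and 170.3 CPM (log2 fold change −0.39, SE 0.09, adjusted p 0.0459 in edgeR). In both genes every control library lay above every cKO library. Cldn10 kept its call only without Control 1 and Ttyh1 in none of the 6 fits that left out 1 library, with adjusted p up to 0.170.

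Gfap, Aqp4, Aldh1l1, Gja1, Itih3, Slc4a4 and Sox9 did not pass the edgeR test in neuron RNA. Gfap stood at 8.46, 8.36 and 6.21 CPM in the control libraries and at 5.50, 6.30 and 7.03 CPM in the cKO libraries (log2 fold change −0.30, SE 0.15, adjusted p 0.324 in edgeR). Aqp4 stood at 2.21, 3.57 and 2.66 CPM and at 3.0, 3.17 and 2.78 CPM (log2 fold change 0.07, SE 0.18, adjusted p 0.870 in edgeR). Both genes' groups overlapped. Aldh1l1 stood at 2.15, 1.61 and 1.35 CPM and at 1.32, 1.4 and 1.4 CPM (log2 fold change −0.32, SE 0.19, adjusted p 0.434 in edgeR). Gja1 stood at 1.93, 3.36 and 2.22 CPM and at 3.47, 2.95 and 3.57 CPM, a difference of 0.40 on the log2 scale (SE 0.20, adjusted p 0.354 in edgeR). For these connexin 43 transcripts the control library labelled 2 lay among the cKO libraries. Itih3 stood at 0.347, 0.370 and 0.261 CPM and at 0.374, 0.551 and 0.592 CPM, the highest log2 fold change of the 31 genes at 0.62 (SE 0.29, adjusted p 0.317 in edgeR), with no overlap. Slc4a4 stood at 49.9, 56.9 and 51.6 CPM and at 40.9, 45.8 and 42.8 CPM, also with no overlap, and did not pass the test (log2 fold change −0.30, SE 0.09, adjusted p 0.115 in edgeR). Sox9 averaged 2.22 ± 0.434 CPM (SD, n = 3) and 1.28 ± 0.116 CPM (SD, n = 3), a difference of −0.81 on the log2 scale (SE 0.18, adjusted p 0.0539 in edgeR), and DESeq2 called it (adjusted p 0.0220).

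**Figure D3:**
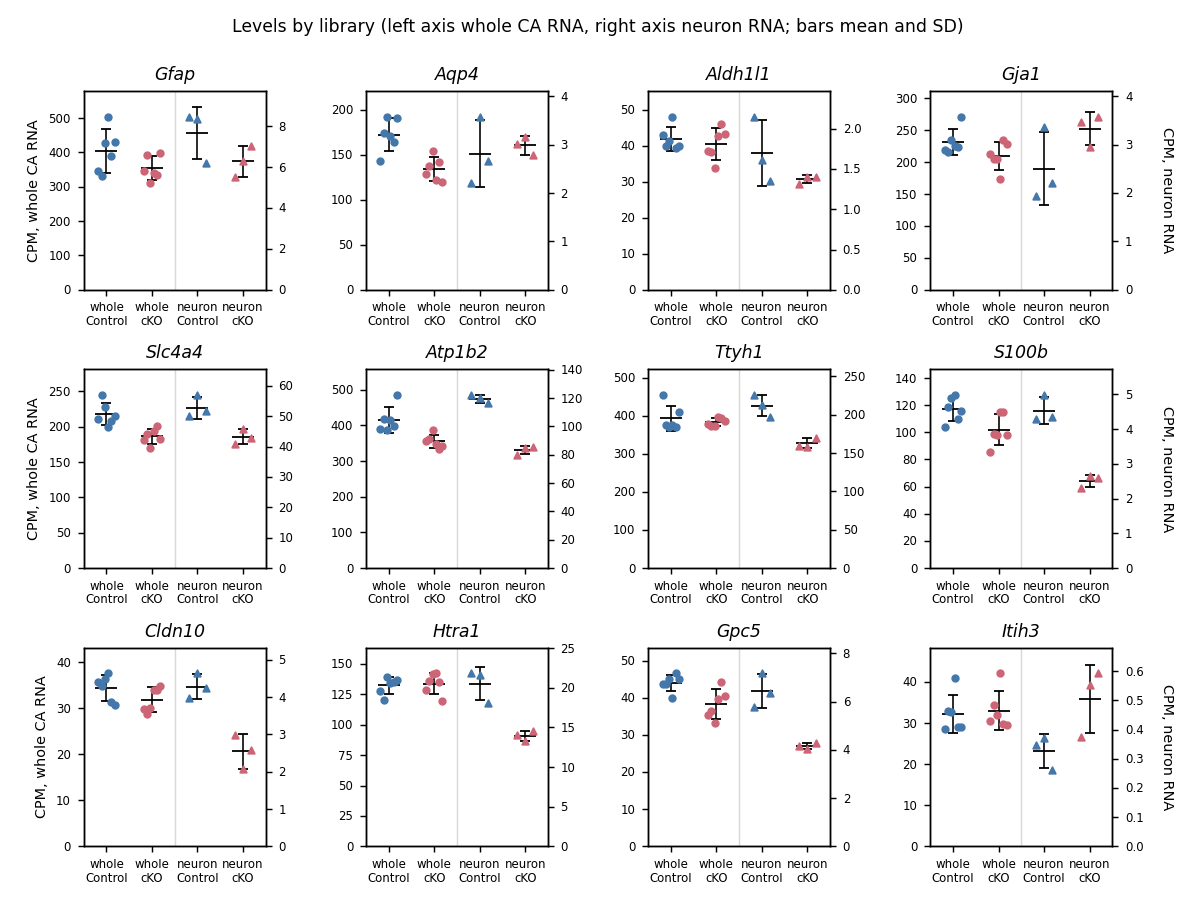
Level of 12 astrocyte genes in every library, in CPM from 0, with whole CA RNA as circles on the left axis and neuron RNA as triangles on the right axis; blue is Control, red is cKO, and bars give the mean and SD. Neuron cKO points lie below every neuron Control point for Slc4a4, Atp1b2, Ttyh1, S100b, Cldn10, Htra1 and Gpc5, and in whole CA RNA the groups are fully apart for Atp1b2 alone among these 12.

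The comparisons with control neuron RNA share their control libraries, and each gene's values are given side by side. Ttyh1 was lower by 1.05 in neuron RNA than in whole CA and had a genotype effect of −0.39 in neuron RNA, and Atp1b2 had −1.96 and −0.53. For Htra1 the values were −2.85 and −0.57, for Gpc5 −2.94 and −0.64 and for Cldn10 −3.17 and −0.76. S100b had −4.85 and −0.86. Itih3 had −6.78 and 0.62, Gja1 −6.70 and 0.40, Mlc1 −6.25 and −0.45, Aqp4 −6.10 and 0.07, and Gfap −5.88 and −0.30. F3, depleted as much as Cldn10, had −3.17 and 0.00, and Clu had −3.34 and −0.12. No relation is read from these pairs. Single libraries stood apart: neuron cKO 1 was the lowest of the 6 for 14 of the 31 genes, and the neuron libraries labelled Control 1 and Control 2 were the highest for 13 and 11. Without neuron cKO 1, without cKO 2 or without Control 2, each time 2 of the 31 genes were called lower. Of all genes tested in those fits, 186 of 19947, 207 of 20026 and 268 of 20088 were called lower.

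Whether the genotype effect itself differed between the materials was tested in 1 fit of all 18 RNA libraries. The effect was more negative in neuron RNA for Htra1, by 0.56 on the log2 scale (SE 0.11, adjusted p 0.0266 in edgeR), and for no other astrocyte gene did the difference pass the test. Of all 17523 genes tested, 0.131% were called more negative and 0.0285% more positive. Htra1 had a log2 fold change of 0.00 in whole CA RNA and −0.57 in neuron RNA. The call was lost in 6 of the 18 fits that left out 1 library (adjusted p up to 0.131), those without whole CA cKO 4 or Control 2 and those without neuron cKO 1, cKO 2, Control 1 or Control 2. S100b came closest among the others, with a difference of −0.64 (SE 0.14, adjusted p 0.0554 in edgeR), and DESeq2 called it (adjusted p 0.0148). Cldn10 had a difference of −0.63 (edgeR adjusted p 0.115, DESeq2 adjusted p 0.0109). For Aqp4 the difference was 0.46 and for Gja1 0.56, in the opposite direction, with edgeR adjusted p of 0.569 and 0.448.

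Summed over the 31 genes, whole CA libraries ranged from 7441 to 8478 CPM when labelled Control and from 7402 to 7792 CPM when labelled cKO, so the groups overlapped. In neuron RNA the sums ran from 666 to 739 CPM and from 543 to 600.4 CPM, without overlap. Ttyh1 and Atp1b2, chosen after their values were seen, made up 62.3% of that neuron difference, and the sums of the other 29 genes were 352 to 403 CPM and 303 to 345 CPM, still without overlap. The sums of other glial and vascular markers overlapped between the genotypes in neuron RNA. Oligodendrocyte markers summed to 162 to 184 CPM and 172 to 185 CPM, microglial markers to 29.7 to 31.8 CPM and 28.1 to 31.8 CPM, and endothelial and mural markers to 17.9 to 20.2 CPM and 18.8 to 20.2 CPM. In whole CA RNA the microglial sum was 427 to 511 CPM in control and 360.4 to 437 CPM in cKO libraries, which overlapped. All 12 microglial markers had a negative log2 fold change there (median −0.22), of which Cx3cr1, the fractalkine receptor, fell (log2 fold change −0.22, SE 0.06, adjusted p 0.0434 in edgeR). The endothelial and mural sum was 420.1 to 480 CPM and 403 to 442 CPM, with Kdr, the main receptor for vascular endothelial growth factor, lower (log2 fold change −0.40, SE 0.08, adjusted p 0.00415 in edgeR), as it was in neuron RNA (−0.51, edgeR adjusted p 0.0411). Oligodendrocyte sums overlapped fully, at 4535 to 6495 CPM and 4347 to 6485 CPM, and none of their 11 markers had an unadjusted p under 0.05 in edgeR. Among the lists other than those of astrocytes, lower sums in both materials were seen for meningeal fibroblasts, for the choroid plexus and ependyma, and for dentate granule cells. In neuron RNA the fibroblast sum was 46.4 to 57.4 CPM in control and 14.2 to 17 CPM in cKO libraries, the choroid plexus sum 27.9 to 29.9 CPM and 14 to 16 CPM, and the dentate sum 181 to 211 CPM and 136 to 175 CPM. In whole CA RNA these sums were 102 to 124 and 53.5 to 74.3 CPM, 50.7 to 58.9 and 34.4 to 46.6 CPM, and 55.6 to 88.3 and 30.6 to 78.0 CPM, of which the dentate sums alone overlapped. From each list 1 gene was called there, Dcn, Kl and Dsp (log2 fold changes −2.25, −1.04 and −0.96; edgeR adjusted p 2.6e-09, 1.2e-06 and 0.0472), as was the neuron marker Map2 (−0.32, edgeR adjusted p 0.0156). Over the 7 fibroblast markers the whole CA log2 fold changes ran from −2.25 to 0.14, with a median of −0.29. Those of the 7 choroid plexus and ependymal markers ran from −1.04 to 0.25 (median −0.12). The 5 dentate markers ran from −0.96 to −0.35 (median −0.60). The highest neuron values were 0.45 and 0.39 for the first 2 lists, whose sums were thus lower without every marker being lower. Not every marker of these lists was depleted in control neuron RNA against control whole CA RNA. Of the 7 choroid plexus and ependymal markers 6 were called lower, and Kl was not. Of the 7 fibroblast markers 6 were called lower and 1 higher (log2 difference 0.80), and all 5 dentate markers were higher. The part of these other lists in the astrocyte results was not tested.

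**Figure D4:**
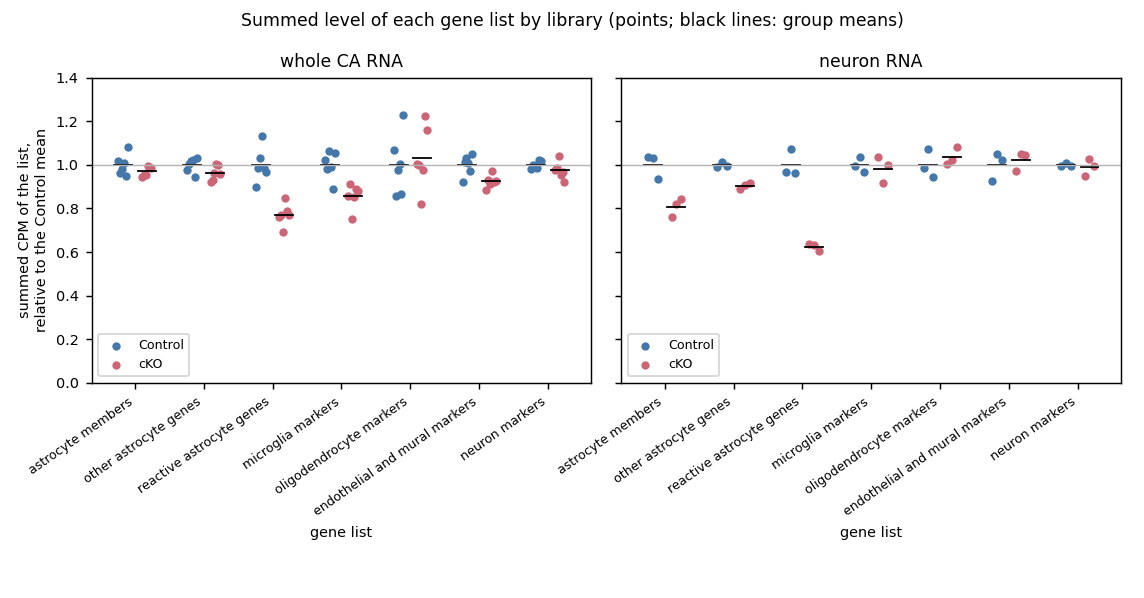
Summed CPM of 7 gene lists in each library, divided by the mean of the control libraries (points; black lines are group means), for whole CA RNA on the left and neuron RNA on the right. In neuron RNA the cKO points of the astrocyte members (543 to 600.4 CPM) lie below all control points (666 to 739 CPM), while microglial, oligodendrocyte and endothelial points overlap.

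Of 49 further astrocyte genes, 1 fell in whole CA RNA (2.04%, against 2.79% of all genes) and none rose in edgeR, so the share was near the background. At an unadjusted p under 0.05, 8 were lower and 1 higher (18.4%, against 15.7% of all genes). The gene that fell was Slc14a1, a urea transporter of astrocytes, which averaged 25.3 ± 2.72 CPM (SD, n = 6) in control and 19.5 ± 1.46 CPM (SD, n = 6) in cKO libraries (log2 fold change −0.39, SE 0.08, adjusted p 0.00611 in edgeR). The glutamate transporters Slc1a2 and Slc1a3 had log2 fold changes of −0.07 and −0.05 there, and the potassium channel Kcnj10 had −0.17 (edgeR adjusted p 0.578, 0.732 and 0.148). The median over the 49 genes was −0.08. Their sums in whole CA RNA were 10075 to 11015 CPM in control and 9826 to 10686 CPM in cKO libraries, which overlapped. The same sums in neuron RNA were 1588 to 1625 CPM and 1422 to 1464 CPM, without overlap. In neuron RNA 4 of the 49 fell (8.16%, against 2.0% of all genes) and none rose, and at an unadjusted p under 0.05, 11 were lower and 4 higher (30.6%, against 17.2% of all genes). The 4 were Fam107a, a regulator of the cytoskeleton, Bcan, the matrix proteoglycan brevican, Mertk, a receptor for the uptake of dying cells and synapses, and Cyp4f14, a fatty acid hydroxylase. Fam107a averaged 29.6 ± 0.271 CPM (SD, n = 3) and 16.7 ± 1.34 CPM (SD, n = 3) (log2 fold change −0.84, SE 0.09, adjusted p 0.00103 in edgeR). For Bcan, Mertk and Cyp4f14 the differences were −0.65, −0.71 and −1.39 on the log2 scale (edgeR adjusted p 0.0419, 0.0304 and 0.0280).

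Reactive astrocyte genes were examined as a list of 35. Their sums in neuron RNA were 250 to 280 CPM in control and 158 to 166 CPM in cKO libraries. Those in whole CA RNA were 359 to 453 CPM and 278 to 340 CPM, and the groups overlapped in neither material. Of the 35 genes, 27 passed the filter on low counts in whole CA RNA. There 4 of the 27 fell (14.8%, against 2.79% of all genes) and none rose in edgeR, and at an unadjusted p under 0.05, 5 were lower and 1 higher (22.2%, against 15.7% of all genes). Serpina3n, a protease inhibitor, averaged 77.2 ± 15.1 CPM (SD, n = 6) in control and 32.3 ± 3.53 CPM (SD, n = 6) in cKO libraries, a difference of −1.27 on the log2 scale (SE 0.10, adjusted p 2.8e-07 in edgeR). The others were Amigo2, Ptgs2 and Cd109, with log2 fold changes of −0.70, −0.93 and −0.49 (edgeR adjusted p 2.2e-06, 1.4e-05 and 0.0355). These 4 are not confined to astrocytes: Amigo2 is an adhesion molecule enriched in CA2 pyramidal neurons, and Ptgs2, cyclooxygenase 2, is induced in neurons by activity. In control neuron RNA, Amigo2 stood higher than in whole CA (log2 difference 0.56), and Ptgs2, Cd109 and Serpina3n had log2 differences of 0.04, −0.94 and −1.02, against a median of −4.79 for the 31 astrocyte genes. All 4 also fell in neuron RNA, with log2 fold changes of −0.62, −0.86, −0.88 and −1.84 for Amigo2, Ptgs2, Cd109 and Serpina3n, where Ptx3 and H2-D1 fell as well (edgeR adjusted p 0.0195 for each of these 2 genes). These 6 were among 27 genes tested there (22.2%, against 2.0% of all genes), and none rose in edgeR. At an unadjusted p under 0.05, 11 were differing there and all 11 were lower (40.7%, against 17.2% of all genes).

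In sorted neuronal nuclei, H3K4me3 peaks were called at the promoters of some astrocyte genes and not of others. The promoter was taken as the 300 bp from 250 before to 50 after a RefSeq start, with any start counted, and peaks were the authors', called per library. A peak in every control library was found for 18 of the 26 matched genes (69.2%), against 47.5% of all 27025 genes. The 7 genes with no H3K4me3 peak in any of the 8 libraries were Gfap, Aldh1l1, Gja1, S100b, Mlc1, Itih3 and Acsbg1, and Hepacam had one in 2 of 4 control and 0 of 4 cKO libraries. An absent peak does not show that the mark is absent. H3K4me1 peaks lay at 18 of the 26 promoters in every control library (69.2%, against 27.4% of all genes), Gja1, S100b and Itih3 included, while Gfap and Aldh1l1 had none. Acetylation gave 10 of 26 promoters for H3K27ac (38.5%, against 42.8% of all genes) and 14 of 26 for H3K9ac (53.8%, against 42.0%). Gfap, Aldh1l1, Gja1, Mlc1, Itih3 and Acsbg1 had no peak of either acetylation mark in any library. S100b had H3K27ac peaks in 2 of 3 control and 0 of 4 cKO libraries and H3K9ac peaks in 3 of 4 control and 0 of 3 cKO libraries. That difference in peak number was not tested.

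The length of the H3K4me3 peak at the promoter was compared between the genotypes for 18 astrocyte genes, and 3 were shorter in the libraries labelled cKO, Ttyh1, Gpc5 and Plpp3. Over all 13372 promoters tested, 18.5% were called shorter and 0.351% longer (limma on log2 of the length plus 100 bp, adjusted p under 0.05), so the share among the astrocyte genes was near the background. Their median log2 difference was −0.01, against −0.10 over all promoters. Every cKO library was shorter than every control library for 3 of the 18 genes and for 25.9% of all promoters, and longer for 0 of the 18 and 0.80% of all. All libraries of a genotype shared 1 input library per the file headers, so input and genotype cannot be told apart.

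Ttyh1 carried the longest promoter peak of the 26 genes, at 4357, 6056, 5200 and 5359 bp in the libraries labelled Control 1 to 4, and it shrank to 2510, 2971, 2171 and 2578 bp in those labelled cKO 1 to 4. The longest cKO peak was thus shorter than the shortest control peak, and the log2 difference was −1.01 (SE 0.12, limma adjusted p 0.00127). This call held in all 8 fits that left out 1 library. Its H3K27ac peaks, of 6851 to 6940 bp in 3 control and 6439 to 7403 bp in 4 cKO libraries, overlapped in length. H3K4me1 peaks there measured 380, 3443, 9787 and 2867 bp in control and 10238, 10592, 9529 and 10204 bp in cKO libraries, which overlapped through Control 3. H3K9ac peaks measured 3993, 482, 5270 and 5162 bp in control and at most 2861 bp in 3 cKO libraries (cKO 1, 2 and 4), which overlapped through Control 2. These lengths of the other marks were not tested. When peaks within 1 kb of each other were merged, the difference was −0.43 and was not called (limma adjusted p 0.134). The sequence of this promoter is the Ttyh1 stretch printed above. Gpc5 had 2116, 1954, 1953 and 1984 bp in control and 1595, 1726, 1498 and 1825 bp in cKO libraries (log2 difference −0.26, SE 0.07, limma adjusted p 0.0311). Plpp3, a lipid phosphatase, had 3132, 2988, 2865 and 3100 bp and 2529, 2835, 2645 and 2554 bp (log2 difference −0.19, SE 0.05, limma adjusted p 0.0392). For these 2 genes the groups did not overlap, and both calls were lost in 6 of the 8 fits lacking 1 library, Gpc5 except without cKO 2 or cKO 4 and Plpp3 except without cKO 2 or Control 3. Slc4a4, lower in whole CA RNA, had 3125, 3902, 2660 and 3421 bp and 2468, 2593, 2801 and 2557 bp, which overlapped through Control 3 and cKO 3 (log2 difference −0.31, SE 0.11, limma adjusted p 0.0987). Htra1, for which the RNA effect differed between the materials, ran from 2123 to 2440 bp in control and from 2101 to 2521 bp in cKO libraries (log2 difference 0.00, limma adjusted p 0.986). Ttyh1 and Gpc5 were called lower in neuron RNA as well, and for Plpp3 the log2 fold change there was −0.19 (edgeR adjusted p 0.532).

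**Figure D5:**
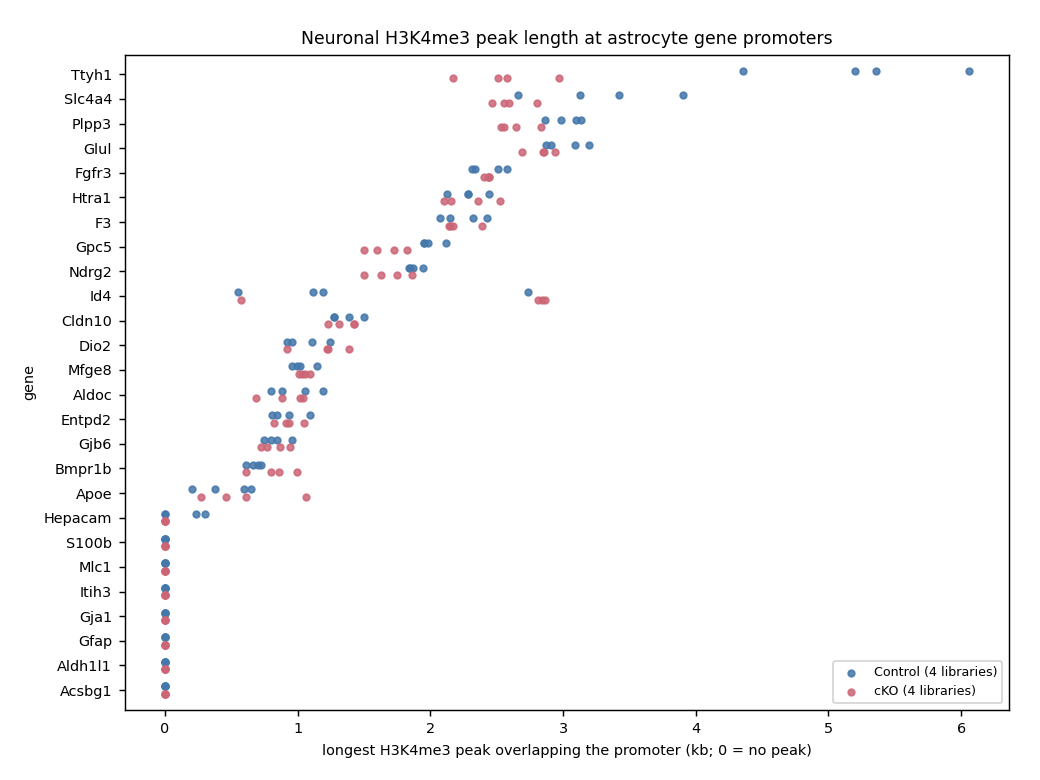
Length in kb of the longest H3K4me3 peak overlapping each of 26 astrocyte gene promoters in neuronal nuclei, in 4 control (blue) and 4 cKO (red) libraries, with 0 where no peak was called. Ttyh1 at the top shows control lengths of 4357 to 6056 bp and cKO lengths of 2171 to 2971 bp, and the 7 genes at the bottom had no peak in any library.

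Short motifs were searched in the 300 bp promoter windows on both strands, as a description of sequence only. The core site of nuclear factor I (TTGGC), a family that drives astrocyte genes, was found for 16 of the 26 genes (61.5%, against 50.4% of all genes in the table). The full palindromic site of the same family, the core site facing its reverse complement across 5 bases, was found for none of the 26 and for 0.0444% of all genes. The core of SOX factors (AACAAT) was found for 1 gene, Bmpr1b (3.85%, against 12.2%), and the motif of STAT factors (TTCNNNGAA), which act on Gfap, for 3 (11.5%, against 9.55%), Gfap and Acsbg1 among them. TATAAA was found for 7 genes (26.9%, against 15.7%). The median number of CG dinucleotides, taken from the richest window of each gene, was 11.5 over the 26 genes, within a range of 2 to 50, against 8 over all genes. The 7 genes without a neuronal H3K4me3 peak had 2 to 9, a range that also held Dio2 (3), Gjb6 (6), Bmpr1b (6) and Aldoc (8), which had peaks in all 8 libraries.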

How the data were processed

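RNA was measured in 18 libraries and 4 histone marks in 30. Per the file headers and values, the RNA files deposited by the authors hold raw read counts per Ensembl ID, and the ChIP files hold peaks called by MACS2 per library at a q-value cutoff of 0.1, with length and fold enrichment (a ratio). Aligner, counter and strandedness are not given in the sources used here, so reads of overlapping genes cannot be told apart. Builds mm10 and GRCm38 are named per the submitters' processing notes.

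Levels are CPM, counts scaled to the library total. Tests used edgeR 4.0.16 (TMM, filterByExpr, quasi-likelihood), with Benjamini-Hochberg adjustment over all genes and calls under 0.05. The SE is the fold change over the root of F. Peak lengths were tested with limma 3.58.1 where 3 or more libraries had a peak. Both kinds of fit were also run on simulated data. DESeq2 1.42.0 was an alternative, on R 4.3.3 and Python 3.11.15. Genes were named if called in any genotype comparison, among the 2 most or 2 least depleted, or if Gfap, Aqp4, Aldh1l1 or Gja1; in other lists, up to 6 called genes. Others were named after their values were seen. Members and lists were chosen with earlier results of these data known, and promoter settings after seeing the peaks.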

Additional observations from a re-analysis of the deposited data

Results flagged for a closer look

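In 6 of 70 groups examined, a single library stood far from the others, and all 6 were whole CA groups of 6. The 70 took in the whole CA groups of all 31 genes and H3K4me3 peak length groups of Ttyh1, Gpc5, Plpp3 and Slc4a4. For independent groups chance gives about 1 in 20, but these groups share libraries. The library labelled Control 6 was highest for Gja1 (271 CPM), Atp1b2 (485 CPM) and Hepacam (102 CPM), Control 1 for Mfge8 (146 CPM) and Control 4 for Itih3 (41.0 CPM), and the library labelled cKO 3 was lowest for Entpd2 (3.88 CPM). Without Control 6 the log2 fold change of Atp1b2 was −0.19 (edgeR adjusted p 0.0845). Control 6 was the highest of the 12 libraries for 9 of the 31 genes.

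Genotype effects differed between the materials for 4 listed genes, given as the effect in neuron RNA minus that in whole CA RNA on the log2 scale. Htra1 had −0.56 (edgeR adjusted p 0.0266) and the further astrocyte gene Fam107a −0.85 (edgeR adjusted p 0.000729), with Fam107a at 507 ± 39.9 and 519 ± 45.6 CPM (SD, n = 6) in whole CA libraries labelled Control and cKO. The endothelial marker Tek had 0.76 (edgeR adjusted p 0.0400) and the meningeal marker Ogn −3.13 (edgeR adjusted p 0.00131).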

How the results depend on the processing

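No called result on the 31 genes changed direction under any alternative run. Called genes in whole CA RNA numbered 640, and 207 and 224 within the first and second lane, with 0 and 1 astrocyte genes lower in these lanes. Leaving out 1 library gave 467 to 669 genes and 1 to 3 astrocyte genes. At an adjusted p under 0.1, the fit of all whole CA libraries called 958 genes, with 5 astrocyte genes lower. In neuron RNA the 539 genes became 833 with DESeq2 and 930 at an adjusted p under 0.1. Leaving out 1 library gave 207 (cKO 1), 259 (cKO 2), 268 (Control 3) and 311 (Control 2) at the low end and up to 482, with 2 to 5 astrocyte genes. The 28 genes of the difference between effects became 69 without a filter and 67 with DESeq2, with 2 and 3 astrocyte genes lower, and 2 at an adjusted p under 0.1. Leaving out 1 library gave 18 (neuron cKO 2 or Control 1) to 32 genes, with 0 to 2 astrocyte genes lower and 0 to 1 higher (Gja1 without neuron Control 2, adjusted p 0.0485). The depletion call held for all 31 genes in every alternative run. Causes were not tested.

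The correlation of deviations between same-numbered libraries was over 0.1 in 4 of 6 pairs in whole CA RNA (−0.06 to 0.20), where they also share a lane, and in 1 of 3 in neuron RNA (−0.06 to 0.29). Since this did not hold for every pair, the numbers were not taken as pairs. With the replicate block, 839 genes were called in whole CA RNA (4 astrocyte genes), 327 in neuron RNA (2, S100b and Atp1b2) and 30 for the difference between effects (1, S100b in place of Htra1). In the H3K4me3 lengths the replicate block left 1 astrocyte gene called, Ttyh1.

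Without mitochondrial genes the summed means in whole CA RNA were 8267 CPM in control and 8026 CPM in cKO libraries. At a fold enrichment of at least 5, members with a peak in every control library numbered 0 for H3K4me1, 5 for H3K27ac and 8 for H3K9ac, and with an overlap of at least 150 bp 6 for H3K27ac and 8 for H3K9ac. The share of all genes at these settings was not computed, so these counts have no background beside them. No H3K4me1 peak of a member exceeded a fold enrichment of 4.93 in a control library, below that threshold. Merging peaks within 1 kb gave 3857 promoters called; leaving out 1 library gave 1920 to 2376, with 1 to 3 astrocyte genes shorter and 0 to 1 longer (Bmpr1b without cKO 1, adjusted p 0.0393). Neuron levels near 0.3 CPM rest on counts as low as 16 reads, and peak lists hold no read counts, so signal within a peak was not measured.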
